A study of Mus musculus with 4 samples.

Results

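The HSP70 genes described here are the 9 genes Hspa1a, Hspa1b, Hspa1l, Hspa2, Hspa5, Hspa8, Hspa9, Hspa13 and Hspa14, found by symbol among the 36088 genes of the deposited expression table. RNA was measured in sorted male germ cells of wild-type mice after culture of fetal testes, at day 14 by the sample titles. Cultures received CBR-5884, an inhibitor of serine metabolism that is known to act on Phgdh, or the solvent DMSO, with 2 libraries per condition that the design text calls biological replicates. The comparison asks what serine metabolism contributes to male germ cell differentiation. Both groups share the wild-type genotype, the culture and the sort. The labels do not state the dose, the length of exposure, the sorting marker or how testes were shared between cultures. The family was chosen by the TPM values of Hspa1a and Hspa1b, whose difference between CBR-5884 and DMSO was already known, together with the family name. The members' values between CBR-5884 and DMSO are therefore given as a description, with no test.

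HSP70 proteins are ATP-driven chaperones that bind short hydrophobic stretches of unfolded proteins and release them for folding, transport or breakdown. J-domain proteins bring clients and start ATP hydrolysis, and nucleotide exchange factors reset the cycle. Cells carry constitutive members in the cytosol, the endoplasmic reticulum and mitochondria. The inducible members are switched on by heat shock factor 1 when unfolded proteins build up. The testis has its own members, since mouse spermatocytes need Hspa2 to pass through meiosis and Hspa1l is a gene of spermatids.

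Hspa1b and Hspa1a, the inducible cytosolic pair, lie next to each other on chromosome 17 of GRCm38 (mm10) in the same direction, with Hspa1l beyond them. Hspa1b spans 34956436 to 34959238 and Hspa1a 34969190 to 34972156, both on the minus strand, and each has 1 transcript of 1 exon in GENCODE M21. Hspa1l spans 34972703 to 34979285 on the plus strand, with 2 exons. RefSeq promoter windows (GRCm38.p6, 250 bases before to 50 bases after the start of the gene) were matched by symbol and used for 6 of the 9 members. Hspa8 and Hspa13 had no matching window, and that of Hspa9 is not reported here. The windows of the pair are shown because they are near copies of each other and the genes moved together. That of Hspa1l is shown as their neighbour with a different level, and that of Hspa5 as the stress gene of another compartment. The windows are chr17:34959189-34959488 (minus strand) for Hspa1b, chr17:34972107-34972406 (minus strand) for Hspa1a, chr17:34972453-34972752 (plus strand) for Hspa1l and chr2:34771840-34772139 (plus strand) for Hspa5. Capitals mark the heat shock element core GAANNTTC in the pair and the endoplasmic reticulum stress element, CCAAT and CCACG with 9 bases between them, in Hspa5.
Hspa1b: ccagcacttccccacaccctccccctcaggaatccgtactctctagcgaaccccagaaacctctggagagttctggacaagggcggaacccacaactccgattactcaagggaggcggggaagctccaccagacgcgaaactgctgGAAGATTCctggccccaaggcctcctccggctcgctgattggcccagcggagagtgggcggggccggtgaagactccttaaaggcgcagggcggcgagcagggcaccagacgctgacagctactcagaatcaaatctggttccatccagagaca
Hspa1a: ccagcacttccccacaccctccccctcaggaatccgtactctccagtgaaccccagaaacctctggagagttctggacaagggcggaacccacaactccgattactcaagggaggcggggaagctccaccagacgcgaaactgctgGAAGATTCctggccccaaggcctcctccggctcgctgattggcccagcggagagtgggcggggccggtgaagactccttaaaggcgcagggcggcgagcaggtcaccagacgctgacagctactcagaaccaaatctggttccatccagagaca
Hspa1l: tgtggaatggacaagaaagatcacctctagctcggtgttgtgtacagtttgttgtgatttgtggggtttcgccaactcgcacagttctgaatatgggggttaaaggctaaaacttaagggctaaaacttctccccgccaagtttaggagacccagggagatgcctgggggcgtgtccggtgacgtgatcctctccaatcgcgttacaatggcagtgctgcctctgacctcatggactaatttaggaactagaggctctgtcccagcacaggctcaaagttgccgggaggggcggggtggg
Hspa5: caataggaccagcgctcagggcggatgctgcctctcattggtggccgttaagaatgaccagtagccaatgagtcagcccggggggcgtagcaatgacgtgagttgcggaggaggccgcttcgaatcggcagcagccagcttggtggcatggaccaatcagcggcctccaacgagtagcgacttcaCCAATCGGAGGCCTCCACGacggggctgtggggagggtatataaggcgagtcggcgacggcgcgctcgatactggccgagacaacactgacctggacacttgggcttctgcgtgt

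The windows of Hspa1b and Hspa1a were identical at 296 of 300 bases (98.7%). Counted from 1 at the 5′ end of the window, with Hspa1b first, the differences were T44C, C47T, G249T and T276C. None of these lies in the heat shock core GAANNTTC, which both windows hold once, at bases 147 to 154. This core, an inverted repeat of 2 units of the element, occurs on either strand in 7.86% of the 32851 RefSeq promoter windows of this length. The other order of the repeat, TTCNNGAA (8.52% of windows) and the 3-unit element, GAANNTTC followed by 2 bases and GAA (0.603%), which contains both, were not in these letters in any of the 6 member windows. The windows of Hspa1l, Hspa2, Hspa5 and Hspa14 held none of the 3 forms. The endoplasmic reticulum stress element was found once, in Hspa5 at bases 186 to 204, and in 0.119% of all windows. All 6 windows held CCAAT on either strand (37.4% of all windows; the stress element of Hspa5 includes one of its copies) and GGGCGG on either strand (35.7%).

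The inducible pair had lower levels in CBR-5884 cultures than in DMSO cultures. Levels are in TPM, a measure of transcript share that accounts for transcript length. Hspa1b had 53.8 and 43.3 TPM in CBR-5884 libraries 2 and 4, as the table numbers them, against 139 and 165 TPM in DMSO libraries 2 and 4. Both CBR-5884 libraries lay below both DMSO libraries, and the ranges were far apart. The means were 48.5 ± 7.45 TPM with CBR-5884 and 152 ± 18.3 TPM with DMSO (SD, n = 2 each), a ratio of 0.318. On the log2(TPM + 1) scale, which understates the change of low genes, the difference was −1.63 (SE 0.14). In bulk RNA a smaller share of cells that express a gene and less RNA per cell cannot be told apart.

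Hspa1a had 23.6 and 16.6 TPM in the CBR-5884 libraries, against 62.3 and 84.2 TPM in the DMSO libraries. Its groups did not overlap either. The means were 20.1 ± 4.98 TPM with CBR-5884 and 73.3 ± 15.5 TPM with DMSO (SD, n = 2 each), a ratio of 0.274 and a log2 difference of −1.82 (SE 0.21). Reads of the pair cannot be assigned with certainty, since Hspa1a holds 67.7% of the 31-base words in Hspa1b, and Hspa1b holds 63.8% of those in Hspa1a. Gm20481, an annotated gene on the other strand of Hspa1a that shares 17.4% of its words, was listed at 0 in all 4 libraries. The sources used here do not state whether reads were assigned by strand.

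The sum of the pair depends less on how reads were split between both genes than each value does. It still moves a little with the split, since the transcripts are 2803 bases (Hspa1b) and 2967 bases (Hspa1a) long, and it leaves out reads given to Hspa1l, which holds 11.1% of the words of Hspa1b and 12.1% of those of Hspa1a. The sum was 77.4 and 59.8 TPM with CBR-5884, against 201.8 and 249.5 TPM in the DMSO libraries. The means were 68.6 ± 12.4 TPM with CBR-5884 and 225.6 ± 33.8 TPM with DMSO (SD, n = 2 each), a ratio of 0.304. Between single libraries, the sum in DMSO was 2.61 to 4.17 times that in CBR-5884. The log2 difference was −1.71, where the pooled SD within conditions was 0.24. Hspa1a made up 30.5 and 27.7% of the sum in the CBR-5884 libraries and 30.9 and 33.7% in the DMSO libraries. The listed split of the pair was thus close between the conditions, though both CBR-5884 libraries lay below both DMSO libraries. The table's scaled reads correspond to about 1644 and 1054 reads for Hspa1a in the CBR-5884 libraries, against about 3729 and 4670 in the DMSO libraries. For Hspa1b they were about 3533 and 2595 with CBR-5884, against about 7875 and 8656 with DMSO. At such numbers counting error is small beside the spread between libraries.

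**Figure D1:**
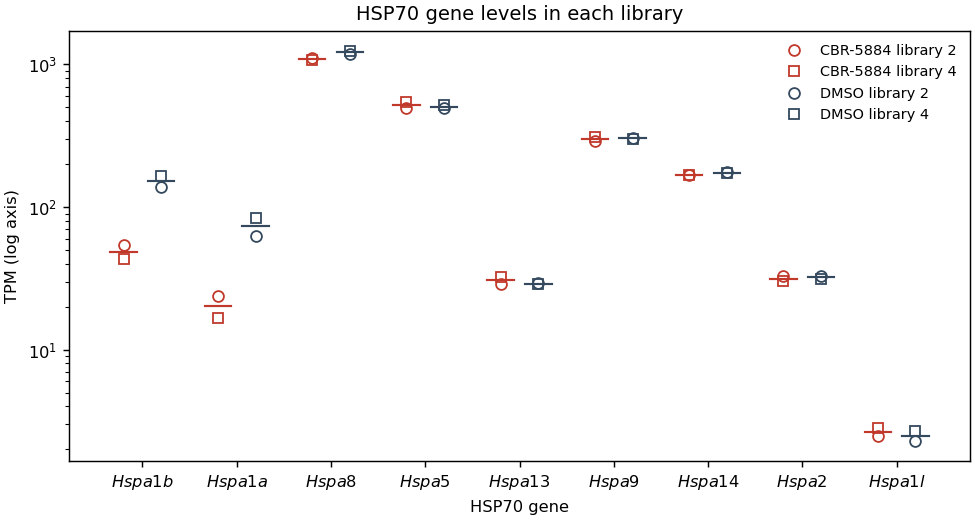
TPM on a log axis for each HSP70 gene, with CBR-5884 libraries in red left of DMSO libraries in dark blue; circles are libraries numbered 2, squares are libraries numbered 4, and lines are means. Hspa1b (means 48.5 and 152 TPM) and Hspa1a (20.1 and 73.3 TPM) lie lower with CBR-5884, while the other genes sit at nearly the same height in both conditions.

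The constitutive cytosolic member Hspa8, also called Hsc70, folds new proteins, strips clathrin from vesicles and serves chaperone-mediated autophagy. It was the member with the highest level in both conditions, with 1107 and 1069.7 TPM in the CBR-5884 libraries against 1189 and 1247 TPM in the DMSO libraries. The groups did not overlap, but the distance was small. The means were 1088 ± 26.2 TPM with CBR-5884 and 1218 ± 41.3 TPM with DMSO (SD, n = 2 each), a ratio of 0.894 and a log2 difference of −0.16 (SE 0.08). Hspa8 spans chr9:40800984-40810087 on the plus strand.

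The level of Hspa8 is uncertain because a processed pseudogene, Gm15459 at chr5:5781615-5783555, was listed above it. Of the 31-base words of Gm15459, 91.9% occur in Hspa8, and 38.6% of the words of Hspa8 occur in Gm15459. Gm15459 had 1271 and 1261 TPM in the CBR-5884 libraries, against 1408 and 1429.5 TPM in the DMSO libraries. Hspa8 took between 45.8 and 46.6% of the sum of both in all 4 libraries. That sum was 2378 and 2331 TPM in the CBR-5884 libraries, against 2597 and 2676.5 TPM in the DMSO libraries, a ratio of means of 0.893. The ratio between conditions was thus nearly the same for Hspa8 alone and for the sum. This follows from the near-constant listed split, so it is no check of how the reads were assigned. The level itself depends on which of them the reads are given to. How many of the reads listed under Gm15459 came from Hspa8 cannot be told apart from this table.

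In the endoplasmic reticulum, Hspa5 (BiP) folds secretory proteins and holds the sensors of the unfolded protein response inactive. It had 496 and 544 TPM in the CBR-5884 libraries, against 494 and 518 TPM in the DMSO libraries. The ranges overlapped, and the log2 difference was 0.04 (SE 0.08). Hspa13 (Stch), a microsome-associated member that lacks the usual substrate-binding domain, had 28.8 and 32.3 TPM with CBR-5884, against 29.2 and 28.7 TPM with DMSO. Its log2 difference was 0.07 (SE 0.11), again with overlapping ranges.

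Hspa9 (mortalin) pulls proteins into the mitochondrial matrix and folds them there. It had 289 and 312 TPM in the CBR-5884 libraries, against 307 and 301 TPM in the DMSO libraries. The DMSO values lay between those of the CBR-5884 libraries, and the log2 difference was −0.02 (SE 0.08). Hspa14, which in human cells forms the ribosome-associated complex with Dnajc2, had 167 and 169 TPM with CBR-5884, against 175 and 172 TPM with DMSO. Its groups did not overlap, yet they differed by a log2 value of only −0.05 (SE 0.07). Gm45902, which overlaps Hspa14 on the same strand and holds 7.3% of its words, had 6.85 and 9.11 TPM with CBR-5884, against 8.79 and 9.07 TPM with DMSO. At these levels the overlap could move few of the reads of Hspa14.

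The testis members were present at low to moderate levels and were close between the conditions. Hspa2, the chaperone of meiotic spermatocytes, had 32.6 and 30.3 TPM in the CBR-5884 libraries, against 33.1 and 31.3 TPM in the DMSO libraries. The ranges overlapped, with a log2 difference of −0.03 (SE 0.11). Under 1% of its 31-base words occur in other genes, so its level rests almost wholly on its own sequence. Hspa1l, the spermatid gene, had 2.46 and 2.82 TPM with CBR-5884, against 2.28 and 2.68 TPM with DMSO, from about 142 and 149 reads with CBR-5884 and about 113 and 123 reads with DMSO. Its log2 difference was 0.07 with the widest SE of the family, 0.25. Because 14.6% of the words of Hspa1l occur in Hspa1a, some reads listed for it could belong to the inducible pair. The level of Hspa1l did not follow the pair across the 4 libraries.

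**Figure D2:**
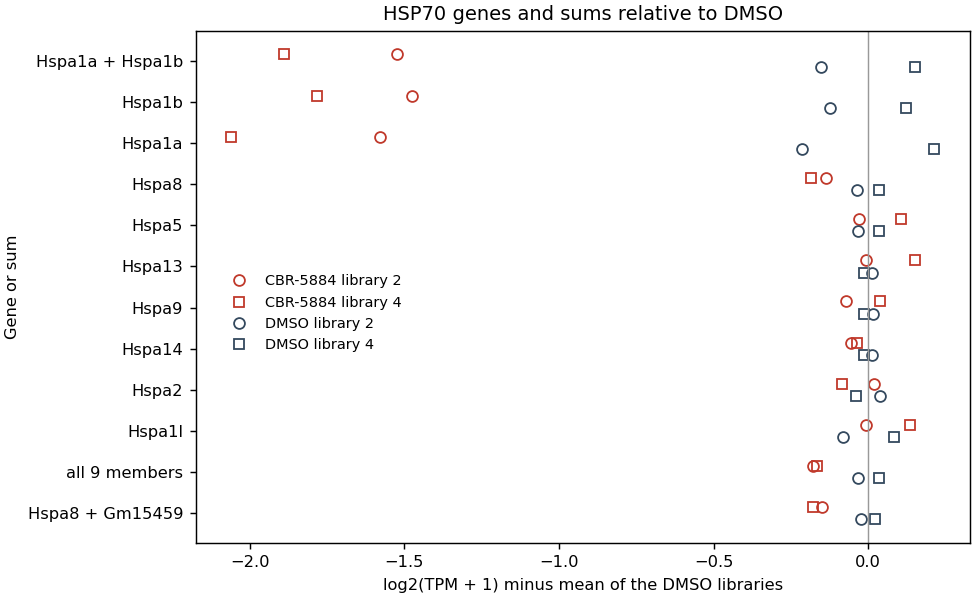
log2(TPM + 1) of each library minus the mean of both DMSO libraries, for each HSP70 gene and for 3 sums; red is CBR-5884 and dark blue is DMSO, with circles for libraries numbered 2 and squares for those numbered 4. For CBR-5884 the summed pair averages −1.71, Hspa1b −1.63, Hspa1a −1.82 and Hspa8 −0.16, and the remaining genes lie within about 0.2 of zero.

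In order of mean level, both conditions ranked Hspa8 first, then Hspa5, Hspa9, Hspa14 and Hspa1b. Neighbours in that order did not overlap between libraries of the same condition. Hspa14 and Hspa1b were close with DMSO, at 173 and 152 TPM, but 3.46-fold apart with CBR-5884. Below them the order differed. Hspa1a ranked above Hspa2 and Hspa13 with DMSO and below both with CBR-5884, where Hspa2 and Hspa13 overlapped. Hspa1l was last in both conditions, 7.61-fold below Hspa1a with CBR-5884 and 11.7-fold below Hspa13 with DMSO. This order takes the listed level of Hspa8 without Gm15459.

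Summed over the 9 genes, HSP70 transcripts came to 2199.6 and 2220.3 TPM in the CBR-5884 libraries, against 2431 and 2549 TPM in the DMSO libraries. The groups did not overlap, and the ratio of means was 0.887. The log2 difference of this sum was −0.17 in TPM but −0.37 in the table's scaled reads, so its size depends on the measure. The split that follows is in TPM and leaves out Gm15459, whose own difference of means was −152.8 TPM. Any of its reads that came from Hspa8 would make the family difference larger and the pair's part of it smaller. They would also raise the share of Hspa8 in the family and lower that of the pair. The difference of means was −280.3 TPM, of which the pair accounted for −157.0 TPM. With Hspa8 added to the pair the difference was −286.6 TPM, so the other 6 members together differed little. The inducible pair made up 3.52 and 2.7% of the family in the CBR-5884 libraries, against 8.3 and 9.79% in the DMSO libraries. Hspa8 alone made up between 48.2 and 50.3% in all libraries. The 7 members other than the pair summed to 2122 and 2160 TPM with CBR-5884, against 2229 and 2299.9 TPM with DMSO, a ratio of 0.946.

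**Figure D3:**
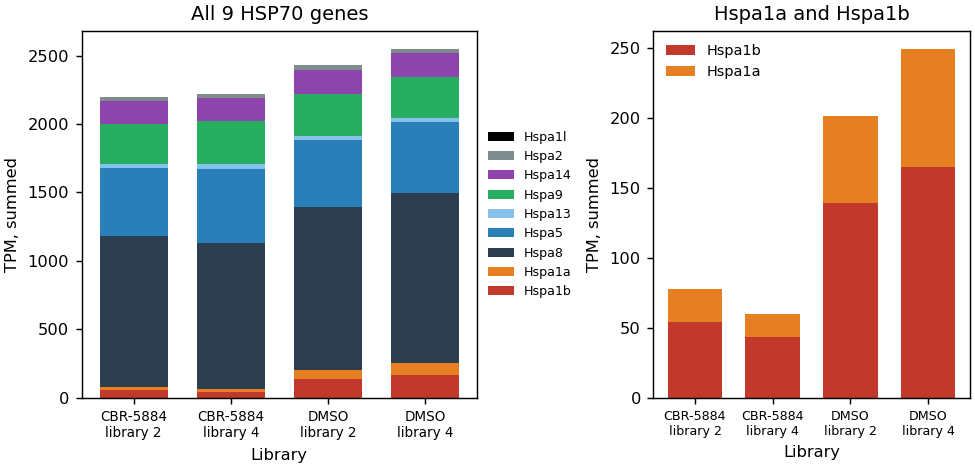
Stacked bars of TPM by library, on the left for all 9 HSP70 genes and on the right for Hspa1b and Hspa1a only. The total is 2199.6 and 2220.3 TPM with CBR-5884 and 2431 and 2549 TPM with DMSO, and the right panel shows the pair at 77.4 and 59.8 TPM against 201.8 and 249.5 TPM.

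All 9 members reached the mean TPM of at least 1 that was required for the fit over all genes, which tested 14920 genes with limma on log2(TPM + 1). At a Benjamini-Hochberg adjusted p under 0.05, 0 of the 9 members were higher and 0 were lower, where 0% of all genes tested passed. At an unadjusted p under 0.05, 2 members were lower, Hspa1a and Hspa1b, and 0 were higher, where 2.15% of all genes were lower, 1.51% higher and 3.66% either. Groups did not overlap for 4 members, each of them lower with CBR-5884, where 17.7% of all genes were lower, 13.6% higher and 31.3% either by that rule. These counts use the contrast that chose the family, so nothing is read from them. The median log2 difference was −0.03 over the 9 members and −0.02 over the 7 without the pair, against −0.01 over all genes tested. By size, 96 genes (0.643%) were lower by at least 1 on the log2 scale. Among the 9538 genes whose mean TPM was 10 or more there were 13, and 3 of these were protein-coding, namely Hspa1a, Hspa1b and the predicted gene Gm49369. This count by size also uses the contrast that chose the family, so nothing is read from the place of the pair in it. Gm49369 had 4.68 and 26.0 TPM with CBR-5884, against 44.6 and 23.2 TPM with DMSO, and its groups overlapped.

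Some of the larger relatives of HSP70 act as its exchange factors. The list of 6, which also holds Hspa12a and Hspa12b, had a median log2 difference of −0.06. In it, limma called 0 higher and 0 lower after adjustment and 0 at an unadjusted p under 0.05. That median depended on single libraries: it was −0.13 without CBR-5884 library 2, 0.01 without CBR-5884 library 4, 0.02 without DMSO library 2 and −0.12 without DMSO library 4. Hspa4, the most abundant, had 584 and 522 TPM in the CBR-5884 libraries, against 617 and 536 TPM in the DMSO libraries. Hsph1, an inducible member of this group, had 121 and 130 TPM with CBR-5884, against 134 and 163 TPM with DMSO, and its groups did not overlap. Hyou1 of the endoplasmic reticulum had 268 and 277 TPM with CBR-5884, against 264 and 272 TPM with DMSO, and Hspa4l had 57.0 and 51.4 TPM against 59.7 and 52.8 TPM.

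The J-domain co-chaperones that serve the HSP70 genes had medians between −0.03 and 0.00. In each of the 4 lists below 0 genes passed at an adjusted p under 0.05 and 0 at an unadjusted p under 0.05 (limma). The 17 cytosolic ones had a median log2 difference of −0.03. Dnaja1, a main partner of Hspa8, had 764 and 767 TPM with CBR-5884, against 837 and 735 TPM with DMSO. Dnajb1, the partner that is induced together with the pair, was singled out after its values were seen. It had 65.2 and 69.5 TPM in the CBR-5884 libraries, against 72.7 and 85.9 TPM in the DMSO libraries, and its groups did not overlap. The 7 of the endoplasmic reticulum had a median of −0.01, and Dnajb11, a co-chaperone of Hspa5, had 120 and 129 TPM with CBR-5884 against 125 and 135 TPM with DMSO. The 5 of mitochondria had a median of 0.00, with Dnaja3, a partner of Hspa9, at 94.4 and 91.7 TPM with CBR-5884 against 109 and 102 TPM with DMSO. Of the 6 testis J-domain genes, 2 reached the level tested, Dnajb3 and Dnajc5g, with log2 differences of −0.10 and 0.09. With each library left out in turn, the median of the cytosolic list stayed between −0.05 and −0.01. Those of the other J-domain lists lay on both sides of 0, within −0.09 to 0.09.

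Of 9 nucleotide exchange factors 0 passed at either threshold (limma). Of the 9, 6 were negative, where 52.8% of all genes were. Their median was −0.08, and it was 0.01 without CBR-5884 library 4 and −0.14 without CBR-5884 library 2. Bag1, which also links HSP70 to the proteasome, had 122 and 94.6 TPM with CBR-5884, against 119 and 117 TPM with DMSO. Hspbp1, an exchange factor of the cytosol, had 70.4 and 66.2 TPM with CBR-5884, against 78.6 and 74.5 TPM with DMSO. Bag3, an inducible exchange factor singled out after its values were seen, had 8.21 and 10.3 TPM with CBR-5884, against 11.3 and 15.0 TPM with DMSO. Its groups did not overlap, and its log2 difference of −0.46 was the lowest of the list. Stip1, St13 and Stub1, which hand clients to HSP90, stabilise the bound state or mark clients with ubiquitin, had log2 differences of −0.08, −0.09 and −0.11, and 0 of the 3 passed at either threshold. Their median of −0.09 ran from −0.15 to −0.03 with each library left out and was nearest to 0 without CBR-5884 library 4.

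Heat shock factors and the other targets of the heat shock response showed no difference of the size seen in the pair. Hsf1, the main activator of the pair, had 84.8 and 80.4 TPM in the CBR-5884 libraries, against 85.9 and 90.6 TPM in the DMSO libraries. Hsf2, which is active in developing germ cells of the mouse, had 69.9 and 70.8 TPM with CBR-5884, against 75.1 and 73.3 TPM with DMSO. Of the 5 factors tested 0 passed at either threshold (limma), and their median was −0.08. Of 20 heat shock response targets outside the 9 members, 16 had a negative log2 difference, where 52.8% of all genes did. Their median was −0.08 and their range −0.46 to 0.08, and 0 passed at either threshold. Without CBR-5884 library 4 the median was −0.03, and once library totals were made equal it was −0.05. Groups did not overlap for 6 of the 20 that were lower and 1 that was higher, where 17.7% and 13.6% of all genes did so. The cytosolic chaperones Hsp90aa1 and Hsp90ab1 were abundant. Hsp90aa1 had 2163 and 1993 TPM with CBR-5884, against 2103 and 2299 TPM with DMSO, and Hsp90ab1 had 2049.7 and 1960.2 TPM against 2176 and 2242 TPM.

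The partners of Hspa5 and Hspa9 were compared by compartment. Of 19 chaperones and unfolded protein response genes of the endoplasmic reticulum 0 passed at an adjusted p under 0.05 (limma). At an unadjusted p under 0.05, 1 was lower, where 2.15% of all genes were. This was Manf, a secreted stress protein, with a log2 difference of −0.17. Hsp90b1, the HSP90 of this compartment, had 592 and 599 TPM with CBR-5884, against 592 and 574 TPM with DMSO. The list's median was −0.06, and −0.01 without CBR-5884 library 2. Of the 19, 13 were negative, where 52.8% of all genes were. The 10 mitochondrial chaperones and proteases had a median of −0.08, with 0 at either threshold. Log2 differences were negative for 10 of the 10, where 52.8% of all genes were, with Hspe1 at 0.00 after rounding. Groups did not overlap for 4, each lower, where 17.7% of all genes were lower by that rule. Once library totals were made equal, the list's median was −0.06. The median ran from −0.14 without DMSO library 2 to −0.04 without CBR-5884 library 4. Hspd1, which forms the folding chamber that Hspa9 feeds, had 362 and 397 TPM with CBR-5884, against 400 and 422 TPM with DMSO, and its lid Hspe1 had 678 and 689 TPM against 654 and 716 TPM. Dnajc2, the partner of Hspa14, had 177 and 164 TPM with CBR-5884, against 161 and 178 TPM with DMSO. In the ribosome-linked list of 3 that also holds Naca and Btf3, the median was −0.04, or 0.00 without CBR-5884 library 4, with 0 at either threshold.

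**Figure D4:**
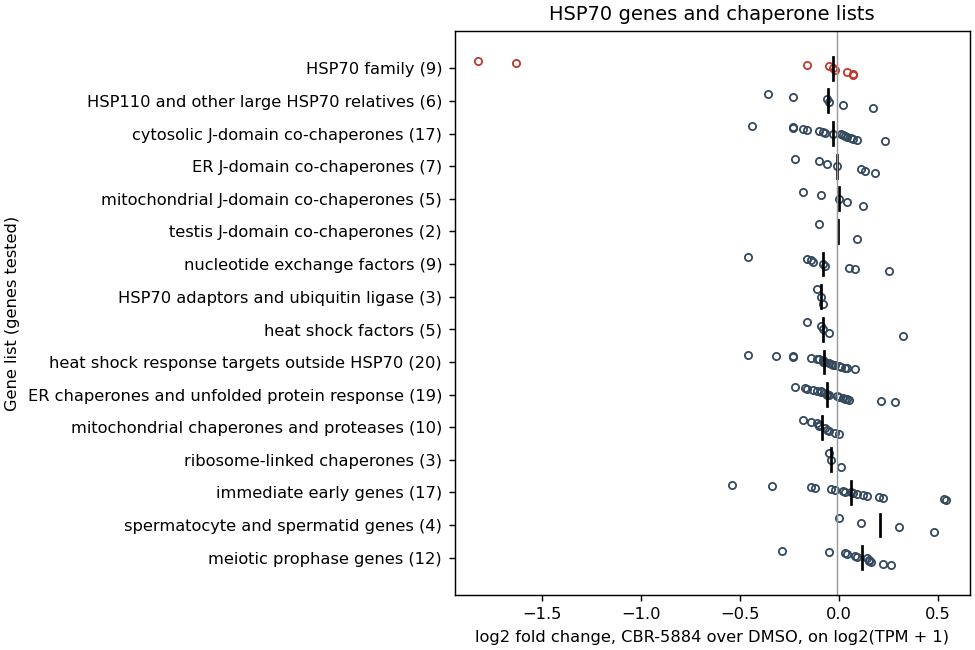
log2 fold change of CBR-5884 over DMSO on the log2(TPM + 1) scale for each tested gene, with the HSP70 family in red and the other lists in dark blue; black bars are list medians, the grey line is the median of all genes, and numbers in brackets are genes tested. Hspa1a (−1.82) and Hspa1b (−1.63) stand left of all genes of the other lists, whose values run from −0.54 to 0.54.

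Genes beside the pair on chromosome 17 did not share its difference. Within 100 kb on either side there were 19 other protein-coding genes, of which 13 were tested, with log2 differences from −0.44 (Cfb) to 0.67 (Sapcd1), both genes of under 3 TPM. At an adjusted p under 0.05 0 of the 13 passed, and 0 did at an unadjusted p under 0.05 (limma). Ehmt2, which encodes the histone H3K9 methyltransferase G9a, had 423 and 371 TPM in the CBR-5884 libraries, against 415 and 386 TPM in the DMSO libraries. Lsm2, a splicing factor gene next to Hspa1l, had 250 and 212 TPM with CBR-5884, against 226 and 209 TPM with DMSO. Vars, the cytosolic valyl-tRNA synthetase, had 199 and 220 TPM with CBR-5884, against 204 and 213 TPM with DMSO.

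**Figure D5:**
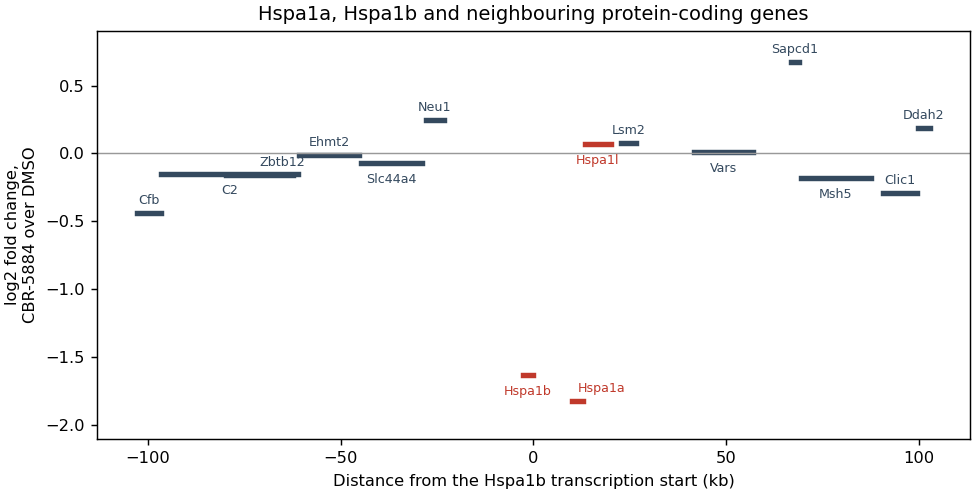
log2 fold change of CBR-5884 over DMSO against distance from the Hspa1b transcription start, for the tested protein-coding genes within 100 kb of the pair; each bar spans a gene, and Hspa1a, Hspa1b and Hspa1l are in red. Hspa1b and Hspa1a lie at −1.63 and −1.82, and the other 13 genes, Hspa1l among them, between −0.44 and 0.67.

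By likeness of profile, the genes nearest to the summed pair were H2ac19, H3f4, Prodh2, mt-Nd3 and Cracd. Likeness was the Euclidean distance between centred log2(TPM + 1) values over the 4 libraries, among 10299 named genes whose mean TPM was 5 or more. Left out were the pair itself, predicted genes (Gm and a number), Rik clones and pseudogenes named with -ps. The distances ran from 0.776 to 0.927, where a flat profile would lie at 1.74, so none of the genes compared came close to the pair. H2ac19, a histone gene, had 2.88 and 3.69 TPM with CBR-5884, against 8.36 and 8.19 TPM with DMSO. Prodh2, a hydroxyproline dehydrogenase, had 8.77 and 7.89 TPM with CBR-5884, against 16.6 and 16.4 TPM with DMSO. The mitochondrial gene mt-Nd3, a subunit of respiratory complex I, had 200 and 171 TPM with CBR-5884, against 334 and 341 TPM with DMSO. H3f4, annotated as a pseudogene, and Cracd had means of 4.01 and 4.26 TPM with CBR-5884, against 9.37 and 9.12 TPM with DMSO.

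Markers of the cells and of handling were compared beside these values. The libraries carried germ cell markers at high levels, with Dazl between 892 and 906 TPM, Ddx4 between 332 and 369 TPM and Mael between 379 and 403 TPM, while Dppa3 was between 0.481 and 1.24 TPM. The 6 germ cell markers summed to 1972 and 1944 TPM with CBR-5884, against 1933 and 1890 TPM with DMSO. The 6 Sertoli cell markers summed to 93.2 and 77.1 TPM with CBR-5884, against 111 and 60.7 TPM with DMSO. The 5 Leydig cell markers summed to 4.48 and 4.72 TPM with CBR-5884, against 6.7 and 5.15 TPM with DMSO, the one somatic list whose groups did not overlap, and only 1 of them had a mean of at least 1 TPM. Peritubular, endothelial and leukocyte markers summed to between 6.56 and 18.5 TPM in any library and overlapped between conditions. Of the 3 red blood cell markers Hba-a1 and Hbb-bs were listed at 0 throughout, and the sum was at most 1.57 TPM. Of 17 immediate early genes, which are induced by cell handling as the pair can be, 11 had a positive and 6 a negative log2 difference. Of all genes, 52.8% had a negative one. The median of the 17 was 0.06. The median became −0.12 when CBR-5884 library 4 was left out and −0.05 when DMSO library 4 was, and 0.20 when CBR-5884 library 2 was. Fos, a leading gene of this group, had 40.4 and 79.2 TPM with CBR-5884, against 48.2 and 48.8 TPM with DMSO. With limma 0 passed at an adjusted p under 0.05. At an unadjusted p under 0.05, 1 was lower, where 2.15% of all genes were. This was Jun, with 18.8 and 28.5 TPM with CBR-5884 against 31.7 and 36.7 TPM with DMSO. The part of the germ or Leydig cell markers or of Jun in the values of the pair was not tested.

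Genes of the stages in which the testis members are known to act were compared as well. The 12 meiotic prophase genes had a median log2 difference of 0.12, with 0 at either threshold (limma). Of these, 10 had a positive difference, where 52.8% of all genes had a negative one. Groups did not overlap for 5 that were higher and 1 that was lower, where 13.6% and 17.7% of all genes did so. The median ran from 0.03 without CBR-5884 library 4 to 0.18 without DMSO library 2. Sycp3, a synaptonemal complex protein, had 196 and 192 TPM with CBR-5884, against 189 and 162 TPM with DMSO, and Stag3, a meiotic cohesin subunit, had 241 and 270 TPM against 247 and 254 TPM. Of 13 genes of later spermatocytes and spermatids, 4 reached the level tested, with a median of 0.20 and 0 at either threshold. That median ran from 0.04 without CBR-5884 library 4 to 0.33 without DMSO library 2. The protamine gene Prm1 was between 0.237 and 0.67 TPM, and Ldhc, a lactate dehydrogenase of late spermatocytes, was between 2.87 and 5.84 TPM. Hspa2 thus stood at about 30 TPM beside abundant mRNAs of early meiosis, and Hspa1l at a few TPM beside spermatid genes near 0.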

How the data were processed

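Reads were processed by the submitters with fastp and kallisto on mm10, per the submitters' processing notes. The sources used here do not state versions, settings or strand. The deposited values cover 36088 genes in 2 signal columns per library, TPM and scaled reads per base per the file headers. The authors' TPM values summed to 966761 to 1002976 per library, so they were treated as a normalized signal rather than strict TPM. Total reads are unknown, since 48.5 to 50.1% of low values came out whole at a tolerance of 0.05, and no count test was run. The table numbers its libraries 2 and 4 in each condition, and these were not tied to the labelled replicates. Genes whose mean TPM was 1 or more were fitted with limma 3.58.1 (R 4.3.3; trend) on log2(TPM + 1), with Benjamini-Hochberg adjustment over 14920 genes, and the fit was tested on simulated data. Approximate reads of genes with 1 transcript came from the size of 1 read in the scaled reads. Gene positions and shared 31-base words came from GENCODE M21 (35820 of the genes matched), and promoters from RefSeq. Named genes were the members, list genes past the threshold or else the 4 with the highest TPM, protein-coding genes within 100 kb of the pair and the 5 most alike profiles; not all are printed, 1 list gene is not reported here, and others were chosen after their values were seen, namely Dnajb1, Bag3, Manf, Jun, Gm49369, Prm1 and the partners of single members. Members and lists were chosen with earlier results of these data known. Alternatives covered the pseudocount, filter, scaling, measure, variance, gene type, block and each library left out.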

Additional observations from a re-analysis of the deposited data

How the results depend on the processing

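The pair, Hspa8 and Hspa14 stayed lower with CBR-5884 under the 10 alternatives computed for single members. Hspa1a ran from −2.06 to −1.58, Hspa1b from −1.79 to −1.48, Hspa8 from −0.20 to −0.13 and Hspa14 from −0.06 to −0.02 on the log2 scale. The −0.02 of Hspa14, with library totals made equal, was the 1 of 90 single-member values that moved beyond its spread. The sign of the other 5 members changed under at least 1 alternative, within −0.08 to 0.15. Leaving out each library in turn gave −1.89 to −1.52 for the summed pair and −0.21 to −0.14 for all 9 genes. With scaled reads, which weight genes by length differently, the 9 genes differed by −0.37 in place of −0.17. At an adjusted p under 0.05 the fit over all genes called 0 genes in either direction, with a smallest adjusted p of 0.0965. Robust variances gave 1 gene higher, scaled reads gave 1 lower (Hspa1b), and protein-coding genes only gave 1 higher (Gm11172) and 1 lower (Hspa1b); the cause was not tested. Hspa1b helped to choose the family on this contrast, so its calls are no independent test of it. Leaving out single libraries, which assumes that a lone library varies like the other condition, gave 0 calls in either direction each time, and the other alternatives gave 0. List genes were called in 0 cases under all alternatives. Of 210 alternative list medians, 19 moved beyond their spread and 23 changed sign. Whether libraries of the same number were paired could not be settled. Across genes, the difference between libraries 2 and 4 with CBR-5884 correlated at r = 0.2 with that with DMSO, with only 2 pairs. With the number as a replicate block 0 genes were called, and 336 were higher and 461 lower at an unadjusted p under 0.05, against 225 and 321 without it. CBR-5884 library 4 had the lowest TPM total, 966761. Once library totals were made equal, 289 genes were higher and 238 lower at that threshold (limma). Small list medians and counts of negative differences therefore depend on the scaling. With 2 libraries per condition, the 95% interval of a log2 difference had a median half-width of 0.37 before adjustment. Smaller differences of single genes were thus mostly not detectable even at an unadjusted threshold. The adjusted threshold called 0 genes, although 96 were lower by at least 1 on the log2 scale. A list with 0 passing is therefore not shown to be unchanged.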
